A study of Mus musculus with 10 samples.

Results

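The glutathione S-transferases of mouse liver were examined in 10 libraries of total RNA, 6 from Tgfbr2+/- mice, in which 1 copy of the gene of the type II TGF-beta receptor is inactivated, and 4 from wild-type littermates (WT). All mice were fed chow, and each library was hybridised to a 2-colour array against 1 reference, the pooled liver RNA of 6 wild-type animals. The titles name the heterozygotes as males and give no sex for the wild-type mice. The labels give no strain, no age and no account of how the mutant allele was made. The 10 members of the family were chosen by gene symbol, with their heterozygote against wild-type differences already known: Gstt1, Gstt2 and Gstt3 of the theta class, Gstm1, Gstm2, Gstm3 and Gstm4 of the mu class, and Gsta2, Gsta3 and Gsta4 of the alpha class. Of these, 8 had a probe under their symbol among the 16383 genes measured, and Gstm4 and Gsta3 had none. Because the differences between the groups took part in the choice, they are given as a description with no test. Pi class genes are named in the selection rule but are not members, and are described among the other transferases.

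Cytosolic glutathione S-transferases are dimeric enzymes that join the tripeptide glutathione to reactive electrophiles, which makes drugs, pollutants and products of lipid peroxidation more soluble and ready for export. The alpha and mu classes are abundant in hepatocytes. Many of their genes respond to the oxidant sensor Nrf2 and to the xenobiotic receptors CAR and PXR, and several differ in level between male and female mouse liver.

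Values are log2 ratios over the pool, so 0 is the pool's level. A difference is Tgfbr2+/- minus WT with its standard error (SE) from limma's moderated variance. A ratio of each mouse to the pool, rather than the reverse, is the likely reading of these columns, and no label states it. The titles name the pool first and the first channel is Cy3, so the usual ratio of Cy5 to Cy3 would put the mouse over the pool, but the design text also mentions a dye swap. Under this reading Tgfbr2 was lower in most heterozygotes on 1 of its 2 probes, which lay at -1.11 to -0.60 in 5 heterozygous libraries, at 0.20 in the library labelled Tgfbr2+/- replicate 4 and at -0.29 to 0.64 in WT. Its other probe overlapped between the groups, at 0.04 to 0.23 in WT and -0.12 to 0.28 in heterozygotes. If all columns run the other way, each difference changes sign while correlations stay as they are. The column of Tgfbr2+/- replicate 5 correlated with that of WT replicate 1 at r = -0.32 over all probes, the lowest value between libraries, so the direction of either column is not settled. As deposited, Tgfbr2+/- replicate 5 was at -0.86 on the first of these Tgfbr2 probes, within the range of the other heterozygotes, and all 4 WT columns had negative means for the male-biased and Kupffer cell lists described at the end. The main results are therefore also given with each of these columns turned in sign. Ratios to a pool carry no absolute level, so the genes were not ranked by abundance. In bulk liver, fewer cells of a type and less RNA per cell cannot be told apart. The labels describe separate mice, 1 to a library, and p-values measure only the spread between these samples.

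The promoters of 2 pairs of adjacent genes are shown because their members rose and fell together from mouse to mouse, as described further on. Gstm3 and Gstm2 are neighbours in the mu cluster on chromosome 3, and Gstt3 and Gstt1 are neighbours in the theta cluster on chromosome 10. For Gstt1 and Gstt3 the joint variation was seen mainly among the heterozygotes and was weaker within WT (r = 0.48). The sequences are RefSeq's, build GRCm38.p6, 5′ to 3′ on the minus strand, 250 bases that end at the base before the annotated start: chr3:107986421-107986670 for Gstm2, chr3:107969175-107969424 for Gstm3, chr10:75797732-75797981 for Gstt1 and chr10:75781423-75781672 for Gstt3. Capitals mark the letters CCAAT or their reverse complement, a match by letters only.
Gstm2: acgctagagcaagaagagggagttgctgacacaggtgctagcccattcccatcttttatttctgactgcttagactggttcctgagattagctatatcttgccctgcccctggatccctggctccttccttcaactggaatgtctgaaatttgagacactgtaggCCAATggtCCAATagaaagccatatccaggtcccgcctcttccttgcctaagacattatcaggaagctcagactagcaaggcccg
Gstm3: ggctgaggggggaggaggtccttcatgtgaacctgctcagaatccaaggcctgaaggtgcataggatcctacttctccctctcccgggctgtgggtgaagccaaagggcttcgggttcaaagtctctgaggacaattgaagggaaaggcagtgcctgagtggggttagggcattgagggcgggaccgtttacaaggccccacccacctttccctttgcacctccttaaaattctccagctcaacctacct
Gstt1: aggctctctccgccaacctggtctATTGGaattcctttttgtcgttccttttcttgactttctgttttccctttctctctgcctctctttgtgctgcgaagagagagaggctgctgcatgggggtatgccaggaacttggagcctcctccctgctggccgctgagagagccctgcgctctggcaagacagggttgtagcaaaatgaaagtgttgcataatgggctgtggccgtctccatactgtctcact
Gstt3: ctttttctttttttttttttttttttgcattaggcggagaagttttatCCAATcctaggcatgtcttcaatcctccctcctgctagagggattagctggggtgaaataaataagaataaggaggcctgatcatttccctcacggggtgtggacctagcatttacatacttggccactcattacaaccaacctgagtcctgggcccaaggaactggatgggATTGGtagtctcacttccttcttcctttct

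A promoter window was found for 8 of the 10 members, and Gstt2 and Gsta4 had none in the table. CCAAT, read on both strands, was present in 7 of these 8 windows, Gstm3 being the one without it, and in 34.5% of 27025 windows of the same length. The antioxidant response element core TGACNNNGC was present in 1 of the 8, that of Gsta3, and in 10.1% of all windows. TATAAA, like the other motifs read on both strands, was present in 1 of the 8, that of Gsta2, and in 13.0% of all windows. The Gsta2 match was its reverse complement, 246 bases before the start. The nuclear receptor half-site AGGTCA and its variant AGTTCA were in none of the 8, against 13.8% and 11.9% of all windows. A globally aligned Gstm2 window matched that of Gstm3 at 46.0% of alignment columns and the Gstt1 window matched that of Gstt3 at 44.0%, within the range of 40.7% to 50.5% over all pairs of member windows.

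The heterozygous livers had lower values for Gstt3 and, with much more spread, for Gsta2, while Gstm2, Gstm3, Gsta4 and Gstt2 had group means within 0.05 of each other. Of the 8 measured members, 6 had negative differences, where 47.4% of all genes did. The median difference was -0.08, and that of all genes was 0.0044. With WT replicate 1 turned in sign 7 of 8 were negative and the median was -0.16, and with Tgfbr2+/- replicate 5 turned 4 of 8 were negative and the median was -0.00078. The 6 heterozygous values all lay below the 4 wild-type values for 1 of the 8 members, Gstt3, where 0.354% of all genes did so. No member was higher without overlap, against 0.726% of all genes. These counts describe a contrast that was used to choose the members.

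**Figure D1:**
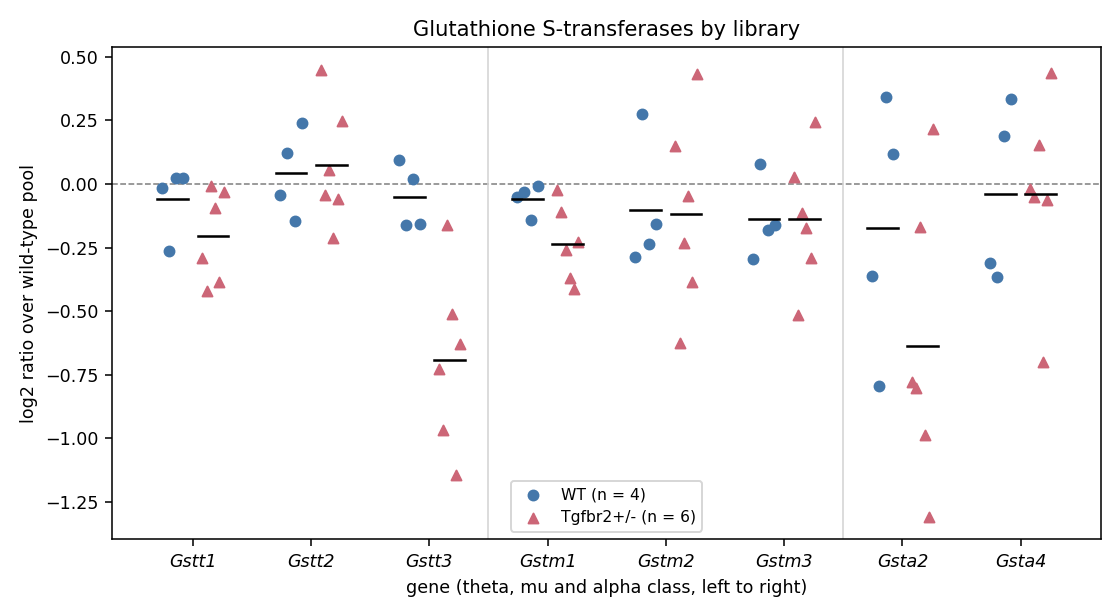
Log2 ratio over the wild-type pool (vertical axis) of the 8 measured members (horizontal axis), with 1 point for each library, circles for WT (n = 4), triangles for Tgfbr2+/- (n = 6) and a black line at each group mean. For Gstt3 the heterozygous values lie between -1.14 and -0.16 and those of WT between -0.16 and 0.09, while Gsta2 spreads widely in both groups.

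In the theta class, whose enzymes handle small halogenated compounds and organic hydroperoxides, Gstt3 had the largest difference of the family. In WT replicates 1 to 4 its log2 ratio was 0.09, -0.16, 0.02 and -0.16. In Tgfbr2+/- replicates 1 to 6 it was -0.73, -0.97, -0.16, -0.51, -1.14 and -0.63. Replicate 3 was level with the lowest wild-type libraries, with a gap of 0.000997 between the groups, and the other 5 heterozygous libraries were well below them. The group means were -0.05 ± 0.13 (SD, n = 4) and -0.69 ± 0.35 (SD, n = 6), a difference of -0.64 ± 0.16 (SE), or 1.56-fold lower. It was -0.59 with WT replicate 1 turned. With Tgfbr2+/- replicate 5 turned it was -0.26 and the groups overlapped. It stayed between -0.74 and -0.55 when any 1 library was left out.

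Gstt1, which acts on dihalomethanes, is the adjacent gene and had a smaller difference in the same direction. Its log2 ratio was -0.01, -0.26, 0.02 and 0.03 in WT replicates 1 to 4. Over the heterozygous libraries the lowest, median and highest values were -0.42, -0.19 and -0.01. The groups overlapped, since WT replicate 2 was as low as the heterozygotes, and 3 of 6 heterozygous libraries lay below all wild-type ones. The difference was -0.15 ± 0.10 (SE), -0.16 with WT replicate 1 turned and -0.02 with Tgfbr2+/- replicate 5 turned. All 6 heterozygous libraries were below the pool for Gstt1 and for Gstt3, and 2 of the 4 wild-type libraries were.

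Gstt2, at the far end of the same cluster, did not share this pattern. Its log2 ratios were -0.04, 0.12, -0.15 and 0.24 in WT replicates 1 to 4 and had a lowest, median and highest value of -0.21, 0.0058 and 0.45 in the heterozygotes. Both groups straddled the pool, and the difference was 0.03 ± 0.12 (SE). It was 0.0082 with WT replicate 1 turned and 0.049 with Tgfbr2+/- replicate 5 turned.

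In the mu class, Gstm1, a main mu transferase of mouse liver, varied little among wild-type mice. It was at -0.05, -0.03, -0.14 and -0.01 in WT replicates 1 to 4. In Tgfbr2+/- replicates 1 to 6 it was at -0.02, -0.11, -0.26, -0.37, -0.41 and -0.23. Of the heterozygous libraries, 4 lay below the wild-type range and replicates 1 and 2 lay within it. The difference was -0.17 ± 0.08 (SE), or 1.13-fold lower, -0.20 with WT replicate 1 turned and -0.04 with Tgfbr2+/- replicate 5 turned.

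Gstm2 and Gstm3, the other measured mu members, had no shift between the groups and a wide spread within them. Gstm2 was at -0.29, 0.27, -0.23 and -0.16 in WT replicates 1 to 4 and at 0.15, -0.63, -0.23, -0.05, -0.39 and 0.43 in Tgfbr2+/- replicates 1 to 6. Gstm3 was at -0.295, 0.08, -0.18 and -0.16 in the same wild-type libraries and at 0.03, -0.51, -0.11, -0.17, -0.29 and 0.24 in the heterozygous ones. Both were highest in Tgfbr2+/- replicate 6 and lowest in Tgfbr2+/- replicate 2, and among the wild-type mice both were highest in replicate 2. Their differences were -0.02 ± 0.19 and 0.0025 ± 0.13 (SE). The sign of each depended on the setting, with -0.16 and -0.15 when WT replicate 1 was turned and 0.11 and 0.10 when Tgfbr2+/- replicate 5 was turned.

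In the alpha class, Gsta2, an inducible transferase with activity towards lipid hydroperoxides, was the most variable member. The mean of its 2 probes was -0.36, -0.80, 0.34 and 0.12 in WT replicates 1 to 4. It was -0.78, -0.80, -0.17, -0.99, -1.31 and 0.21 in Tgfbr2+/- replicates 1 to 6. Of the heterozygous libraries, 4 were near or below the lowest wild-type library and replicates 3 and 6 were within the wild-type range, so the groups overlapped. The 2 probes never differed by more than 0.24 in a library. Gsta1 of the same class was not measured, and whether the Gsta2 probes also read its transcript was not tested. The difference was -0.46 ± 0.30 (SE), or 1.38-fold lower, and ranged from -0.67 without WT replicate 2 to -0.29 without WT replicate 3. It was -0.64 with WT replicate 1 turned, -0.03 with Tgfbr2+/- replicate 5 turned and -0.21 without Tgfbr2+/- replicates 4 and 5 together.

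Gsta4, which conjugates hydroxynonenal and other products of lipid peroxidation, was at -0.31, -0.37, 0.19 and 0.33 in WT replicates 1 to 4. Its lowest, median and highest heterozygous values were -0.70, -0.04 and 0.44, the lowest in replicate 4. Both groups spanned the pool with similar SDs, 0.35 in WT and 0.37 in heterozygotes, although the heterozygous range was wider. The difference was -0.0023 ± 0.20 (SE). It was -0.16 with WT replicate 1 turned and 0.02 with Tgfbr2+/- replicate 5 turned.

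**Figure D2:**
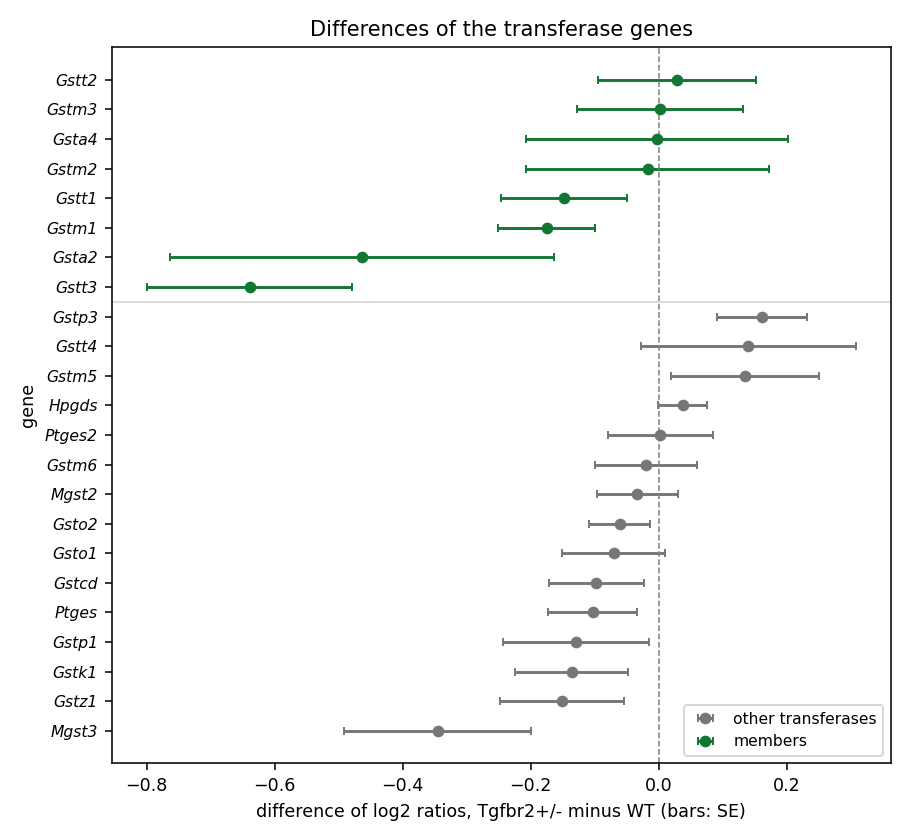
Difference of log2 ratios, Tgfbr2+/- minus WT, with its SE (horizontal axis) for the 8 measured members (green, above) and 15 other transferase genes (grey, below), 1 gene to a row. Gstt3 at -0.64 and Gsta2 at -0.46 lie farthest from 0 among the members, and Mgst3 at -0.35 among the others.

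The spread between mice of the same group was not used to choose the members. The pooled within-group standard deviation of Gsta2 was 0.54, which put it at percentile 99.2 of all genes, and that of Gsta4 was 0.37, at percentile 97.7. Gstm2 was at percentile 97.1, Gstt3 at 94.9, Gstm3 at 90.4, Gstt2 at 89.0, Gstt1 at 79.2 and Gstm1 at 60.7. In all, 5 of the 8 were above percentile 90, while the median gene had a standard deviation of 0.11. A ratio of a dim probe also varies more, and signal intensities were not analysed here, so the part of probe brightness in this spread was not tested. Over the heterozygous mice the highest Gsta2 value was 2.88-fold the lowest, and that of Gstm2 2.08-fold. The percentiles of Gsta2, Gsta4 and Gstm2 stayed between 96.9 and 99.6 with either column turned in sign. Others depended on the sign of Tgfbr2+/- replicate 5. With that column turned, Gstt3 was at percentile 99.3, Gstm3 at 92.3, Gstt1 at 90.5, Gstm1 at 88.9 and Gstt2 at 87.2.

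Gstm2 and Gstm3 varied together from mouse to mouse, and Gstm1, their neighbour, did not follow them. After each group's mean was subtracted, the Pearson correlation of Gstm2 with Gstm3 over the 10 libraries was 0.97. Among the 16382 other genes Gstm3 was the one most like Gstm2, and Gstm2 was the 2nd most like Gstm3, after Rbak. The correlation was 0.97 within the 6 heterozygous libraries and 0.98 within the 4 wild-type ones, 0.96 with WT replicate 1 turned and 0.97 with Tgfbr2+/- replicate 5 turned. This pair was picked after its values were seen, so no p is given. The correlation of Gstm2 with Gstm1 was 0.17. Mu transferases have similar sequences, and whether the Gstm2 and Gstm3 probes read each other's transcript was not tested, since no probe sequence was at hand.

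For 3 pairs of members the correlation was tested over the 6 heterozygous libraries, with exact two-sided permutation tests and Benjamini-Hochberg adjustment over the 3. The remaining pairs of measured members were not tested, and the adjustment does not cover them. Gstt1 and Gstt3 had r = 0.88 (exact permutation p = 0.0125, adjusted p = 0.0375) and Spearman's rho = 0.89 (exact permutation p = 0.0333, adjusted p = 0.100). Both were lowest in replicates 2 and 5 and highest in replicate 3. Without the 2 libraries farthest from the median of Gstt1 the correlation was 0.69 over 4 libraries (exact permutation p = 0.333). The smallest p that 4 libraries allow is 0.0417, which could not pass after adjustment beside the p of the other pairs, so this says nothing of the stability of the call. The adjusted p was between 0.05 and 0.225 on leaving out any single library, with r from 0.85 to 0.95, and was 0.179 after quantile normalization. Among all other genes Gstt3 was the 117th most like Gstt1, and Gstt1 the 100th most like Gstt3, over 10 libraries with group means subtracted. There r was 0.80 (permutation within groups, p = 0.00920, adjusted p = 0.0276), and rho was 0.78 (adjusted p = 0.0812). Within the 4 wild-type libraries alone r was 0.48. With Tgfbr2+/- replicate 5 turned r within the heterozygotes was 0.94 (exact permutation adjusted p = 0.00833).

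The other tested pairs did not pass. Gsta2 and Gstm3 had r = 0.67 (exact permutation p = 0.138, adjusted p = 0.206) and rho = 0.77 (exact permutation p = 0.103, adjusted p = 0.154), and r was 0.13 without the 2 libraries farthest from the median of Gsta2. Gstm1 and Gstm3 had r = 0.12 (exact permutation p = 0.818, adjusted p = 0.818) and rho = 0.31 (exact permutation p = 0.564, adjusted p = 0.564), and r was -0.40 without the 2 libraries farthest from the median of Gstm1.

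Within the alpha class, Gsta2 went with Gsta4 (r = 0.77 over 10 libraries with group means subtracted, 0.61 with Tgfbr2+/- replicate 5 turned), where Gsta4 was only the 494th most like Gsta2. Across the classes, Gsta2 went with Gstt1 (0.76) and Gstt2 with Gstm1 (0.74). Gstt3 had r = 0.52 with Gsta2 and 5.87e-05 with Gsta4. These values describe 10 libraries that share 1 pool.

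**Figure D3:**
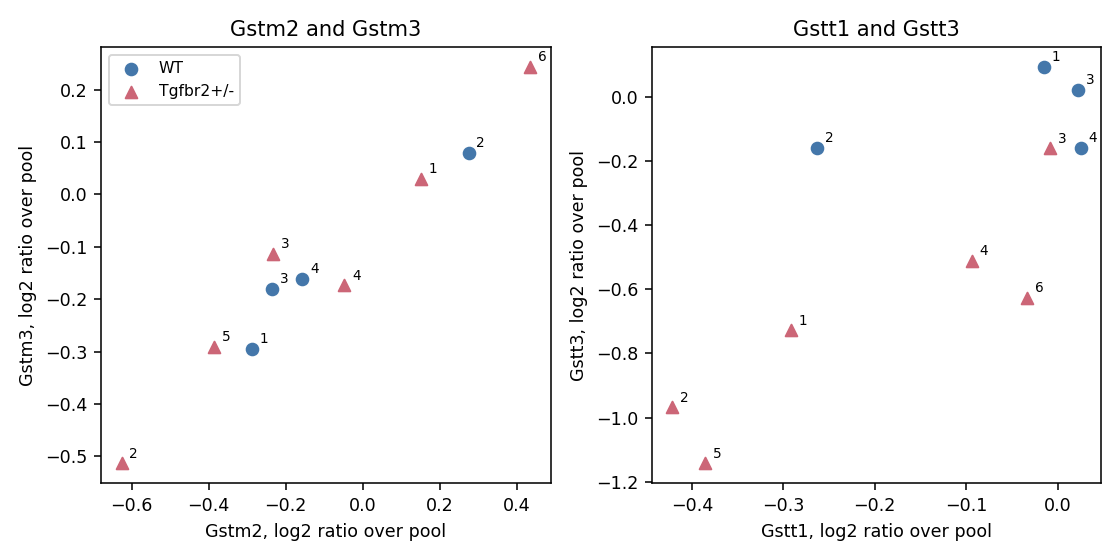
Log2 ratios over the pool of Gstm2 against Gstm3 (left) and of Gstt1 against Gstt3 (right), with 1 point for each library, circles for WT and triangles for Tgfbr2+/-, numbered by replicate. In the left plot both groups lie along 1 line (r = 0.97), and in the right plot the heterozygous libraries run from replicates 2 and 5, lowest for both genes, to replicate 3, which is level with WT (r = 0.88).

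**Figure D4:**
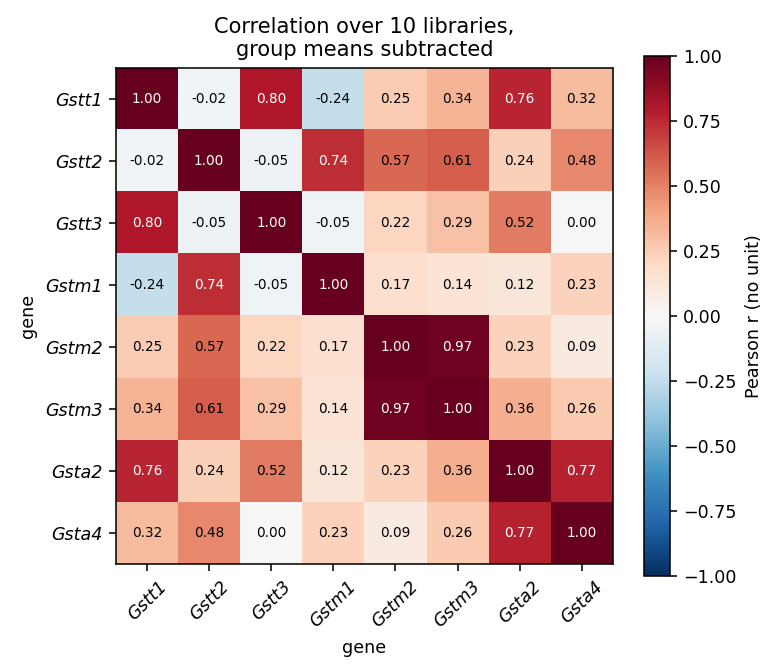
Pearson r between the 8 measured members over 10 libraries after each group's mean was subtracted, with genes on both axes and colour from -1 (blue) to 1 (red). The highest value is that of Gstm2 with Gstm3 at 0.97, and the lowest that of Gstt1 with Gstm1 at -0.24.

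The genes whose variation between mice was most like the mean of each class, other than members, were as follows. For the theta class they were Mall, Fbxo24, Rdh16 and Spata46, with r from 0.93 to 0.97 over 10 libraries. For the mu class they were Tceal3, Rbak, Abca2 and Tmem71, with r from 0.93 to 0.95. For the alpha class they were Srf, Kat8, Arf2 and Nrarp, with r from 0.96 to 0.98. With Tgfbr2+/- replicate 5 turned, r fell to 0.40 for Tceal3, 0.59 for Spata46 and 0.63 for Fbxo24. It also fell to 0.74 for Srf, 0.78 for Tmem71, 0.82 for Mall and 0.86 for Kat8. In that setting r stayed between 0.94 and 0.96 for Rdh16, Rbak, Abca2, Arf2 and Nrarp. With WT replicate 1 turned, r was 0.69 for Rbak, 0.86 for Fbxo24 and 0.87 for Kat8. The genes were picked for the highest r among all measured genes over 10 libraries, so the choice itself raises their r. How high r would reach by chance in such a search was not tested, and no p is given. The values therefore do not show that these genes vary with the transferases.

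The other transferase genes are not among the members, and their list was drawn up by family with earlier results of these data known. Limma called 0 of 16383 genes at an adjusted p of 0.05, or 0% of all genes. At an unadjusted p under 0.05 it gave 421 genes lower in heterozygous liver, 2.57% of all, and 487 higher, 2.97% of all. Of the 19 other transferases listed 15 were measured, 10 with negative and 5 with positive differences, and 0 passed the adjusted threshold. Their median difference was -0.06, -0.05 with WT replicate 1 turned and -0.0053 with Tgfbr2+/- replicate 5 turned. At an unadjusted p under 0.05 there was 1 lower gene and 1 higher gene.

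The lower one was Mgst3, a membrane-bound transferase and peroxidase, with values of 0.02, -0.27, 0.18 and 0.02 in WT replicates 1 to 4 and -0.34, -0.36, 0.03, -0.32, -0.88 and -0.28 in Tgfbr2+/- replicates 1 to 6. Of the heterozygous libraries, 5 were below all wild-type libraries and replicate 3 was within their range, the same library that was highest for Gstt3. The difference was -0.35 ± 0.15 (SE, limma adjusted p = 0.869). It was -0.34 with WT replicate 1 turned, -0.05 with Tgfbr2+/- replicate 5 turned and -0.24 without Tgfbr2+/- replicate 5. With group means subtracted Mgst3 had r = 0.84 with Gstt3 over 10 libraries and was the 47th most like it of 16382 genes. The higher one was Gstp3 of the pi class, with a difference of 0.16 ± 0.07 (SE, limma adjusted p = 0.893). Gstz1, the maleylacetoacetate isomerase, was next, at -0.15 ± 0.10 (SE, limma adjusted p = 0.919), and at -0.094 without Tgfbr2+/- replicate 6. Gstp1 had -0.13 ± 0.11, from -0.22 without WT replicate 3 to -0.038 without WT replicate 4. Gstt4, which lies between Gstt1 and Gstt2, had 0.14 ± 0.17, from 0.046 without Tgfbr2+/- replicate 4 to 0.24 without Tgfbr2+/- replicate 5. Gstm5 of the mu class had 0.13 ± 0.11, 0.070 without WT replicate 1, and went with Gstm3 (r = 0.79), although r was 0.53 with Tgfbr2+/- replicate 5 turned.

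Genes that make and renew glutathione had a median difference of -0.0079 over 16 measured, 10 of them negative, with 0 lower and 1 higher at an unadjusted p under 0.05. The higher one was Gclm, the modifier subunit of glutamate-cysteine ligase, which sets the rate of glutathione synthesis. It was at -0.06, -0.33, -0.16 and 0.08 in WT replicates 1 to 4 and at 0.19, -0.01, -0.01, 0.12, 0.32 and 0.23 in Tgfbr2+/- replicates 1 to 6. The heterozygous values tended to be above the wild-type ones, with overlap through replicates 2 and 3. The difference was 0.26 ± 0.09 (SE, limma adjusted p = 0.767). The catalytic subunit Gclc differed by 0.38 ± 0.20 (SE, limma adjusted p = 0.917) and glutathione synthetase, Gss, by 0.18 ± 0.10 (SE, limma adjusted p = 0.919). WT replicate 2, at -0.97 for Gclc and -0.32 for Gss, was the lowest library for both, and without it Gclc differed by 0.14 and Gss by 0.098.

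Glutathione peroxidases, peroxiredoxins and related enzymes had a median difference of -0.03 over 13 measured, 8 of them negative, and 0 in either direction at an unadjusted p under 0.05. Gpx6 differed by -0.21 ± 0.10 (limma adjusted p = 0.917), Prdx2 by 0.08 ± 0.04 (limma adjusted p = 0.917) and Gpx2 by 0.11 ± 0.06 (limma adjusted p = 0.919). Gpx6 differed by -0.14 without Tgfbr2+/- replicate 5 and by -0.0098 with that column turned in sign. Gpx2 differed by 0.063 without WT replicate 1. Genes of conjugate export and of the mercapturate pathway, which trims glutathione conjugates, had a median of 0.02 over 17 measured, with 2 lower and 0 higher at an unadjusted p under 0.05. The lower ones were the dipeptidase Dpep1 (-0.24 ± 0.07, limma adjusted p = 0.704) and the exporter Abcc3 (-0.30 ± 0.12, limma adjusted p = 0.856). The aminopeptidase Lap3 differed by 0.13 ± 0.06 (limma adjusted p = 0.917), and by 0.082 without WT replicate 2. Regulators and targets of Nrf2 had a median of 0.02 over 26 measured, 16 of them positive, with 1 lower and 2 higher at an unadjusted p under 0.05. Beside Gclm and Abcc3, the heme oxygenase gene Hmox1 differed by 0.25 ± 0.10 (limma adjusted p = 0.838). The medians of all 4 of these lists changed sign with WT replicate 1 turned, and those of all but the Nrf2 list did so with Tgfbr2+/- replicate 5 turned.

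The CAR and PXR list and the lists of sex-biased liver genes had larger medians than the Nrf2 and glutathione lists above. Large medians were not confined to them, as the periportal and Kupffer cell lists below also had them. Receptors and targets of CAR and PXR, members left out, had a median difference of -0.16 over 35 measured, 27 of them negative, with 9 lower and 0 higher at an unadjusted p under 0.05. The genes of smallest p were the sulfotransferase Sult1d1 (-0.66 ± 0.17, limma adjusted p = 0.552) and the cytochromes P450 Cyp2b10 (-0.98 ± 0.27, limma adjusted p = 0.616) and Cyp2b9 (-1.86 ± 0.52, limma adjusted p = 0.621). Female-biased liver genes had a median of -0.28 over 24 measured, 22 of them negative, with 8 lower and 0 higher, led by Cyp4a14 (-0.48 ± 0.12, limma adjusted p = 0.468), Cyp2b9 and Cyp2b13 (-1.53 ± 0.47, limma adjusted p = 0.703). Male-biased genes had a median of 0.20 over 17 measured, 13 of them positive, with 0 lower and 7 higher. They were led by Alas2 (0.15 ± 0.05, limma adjusted p = 0.683), Ugt2b38 (1.48 ± 0.51, limma adjusted p = 0.749) and Cyp7b1 (0.46 ± 0.17, limma adjusted p = 0.797). Alas2 is also on the erythroid list given below, where it was the 1 positive gene of 4 measured. With Tgfbr2+/- replicate 5 turned these 3 medians were -0.07, -0.12 and 0.14, and with WT replicate 1 turned they were -0.17, -0.24 and 0.07. The 5 measured Y-linked genes had a median difference of -0.03, with library means of 0.01 to 0.05 in WT and -0.08 to 0.05 in heterozygotes. Library means of the female-biased list were -0.31 to 0.11 in WT and -0.67 to -0.13 in heterozygotes. The part of sex or of these receptors in the transferase values was not tested.

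Markers of liver cell types were set beside the members. Hepatocyte markers had a median difference of -0.0078 (8 measured, library means -0.13 to 0.10 in WT and -0.18 to 0.02 in heterozygotes), pericentral genes -0.04 (11 measured) and periportal genes -0.17 (6 measured). Kupffer cell and macrophage markers had a median of 0.43, with 12 of 13 positive, library means of -0.20 to -0.14 in WT and -0.01 to 0.30 in heterozygotes, and 10 genes higher at an unadjusted p under 0.05. That median was 0.29 with WT replicate 1 turned and 0.34 with Tgfbr2+/- replicate 5 turned. Endothelial, stellate, cholangiocyte and lymphocyte markers had medians of 0.01, 0.02, -0.01 and 0.01, neutrophil markers 0.095, erythroid markers -0.07, and pancreas and adipose markers -0.06. Ratios to a liver pool do not show whether a marker is absent, so the labelled tissue could not be checked by level. At an unadjusted p under 0.05, 3 of 6 neutrophil markers were higher, among them S100a9 (0.79 ± 0.18, limma adjusted p = 0.419) and S100a8 (0.33 ± 0.10, limma adjusted p = 0.650), with library means of -0.17 to 0.07 in WT and 0.04 to 0.34 in heterozygotes. Of 8 endothelial markers 2 were higher, Clec4g without overlap (0.27 ± 0.08, limma adjusted p = 0.621) and Fcgr2b with overlap (0.36 ± 0.11, limma adjusted p = 0.718). Stab2 was lower without overlap (-0.08 ± 0.04, limma adjusted p = 0.913). Of all genes, 0.726% were higher and 0.354% lower without overlap. The part of cell makeup in the transferase values was not tested.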

How the data were processed

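Two-colour array ratios of 10 liver libraries were analysed, and each library's group was taken from its title. RNA came from RNeasy columns with DNase treatment and was labelled by an aminoallyl MessageAmp II procedure, per the labels' protocols. The authors deposited 1 column of log ratios per library, taken here as log10 because 8 values lie at exactly the limits of 2 or -2. For scanner software, background correction and normalization, nothing is stated in the labels or the table. The design text mentions a dye swap, and whether a column combines both orientations is unknown. Column medians of the deposited log10 ratios were 0.0013 to 0.0047. The table has 23438 probes, of which 17726 carry 1 gene symbol in the platform annotation, 50 several and 5662 none here. Ratios were multiplied by 3.3219 to give log2 values and averaged per symbol to 16383 genes.

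Groups were compared with limma 3.58.1 in R 4.3.3 (lmFit and eBayes, two-sided, Benjamini-Hochberg over all genes, all 10 libraries, no covariate), and the code was tested on simulated data. The precision is limited by the number of arrays. The members and the gene lists were chosen with earlier results of these data known. The rule for named genes took the members, Tgfbr2, the 3 genes of smallest p in each list and the 4 genes most like each class, and most marker lists are given by their summaries. Genes mentioned beside these, Gstp1, Gstt4, Gstm5 and Mgst2, were taken after their values were seen. Replicate numbers were not used to pair the libraries in the main fit. Same-numbered libraries of the groups had correlations of 0.01 to 0.30 after group means were subtracted. Libraries of different numbers were not compared in this way, so whether the numbers pair the libraries was not tested.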

Additional observations from a re-analysis of the deposited data

Results flagged for a closer look

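Over 33 transferase and glutathione genes, 4 of 66 sets of replicates held a library set apart from the rest of its group, where chance gives about 1 in 20. Gstt1 was at -0.26 in WT replicate 2, while the rest of the WT mice had -0.01 to 0.03. Mgst2, a microsomal transferase gene outside the naming rule, was at -0.20 in Tgfbr2+/- replicate 2, against -0.05 to -0.0076 in the others of its group. Gpx6 was at 0.18 in WT replicate 4, while the rest of the WT mice had -0.10 to -0.06, and at -0.60 in Tgfbr2+/- replicate 5, while the rest of that group had -0.23 to -0.05.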

How the results depend on the processing

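Gstt3, Gsta2, Gstm1 and Gstt1 kept a negative difference under all 19 alternatives, and Gstt2, Gstm2, Gstm3 and Gsta4 changed sign under some. The members' median difference stayed negative, from -0.16 with WT replicate 1 turned in sign to -0.00078 with Tgfbr2+/- replicate 5 turned. That last setting moved Gstt3 to -0.26 and Gstm1 to -0.04. As deposited, Tgfbr2+/- replicate 5 was the lowest heterozygous library for both genes, at -1.14 and -0.41. Whether its column runs the other way was not tested. The fit with the replicate block gave a member median of -0.12, Gstt3 -0.54 and 0 genes past the adjusted threshold, and it changed no call. At a limma unadjusted p under 0.05 that fit gave 743 lower and 775 higher genes, against 421 and 487 in the main fit. Leaving out single libraries gave 0 to 10 genes past the threshold over all genes and 0 to 3 among the 226 other listed genes. The higher counts came without Tgfbr2+/- replicate 3, and no transferase gene was among them. The correlation of Gstt1 with Gstt3 lost its call on leaving out single libraries (0.85 to 0.95) and after quantile normalization (0.87). Without the 2 libraries farthest from the median it was 0.69, where 4 libraries allowed no call beside the other pairs. That of Gstm1 with Gstm3 turned negative without the 2 farthest libraries (-0.40) and ranged from -0.14 to 0.63 on leaving out single ones. Leaving out Tgfbr2+/- replicates 4 and 5 together, and recomputing the correlations by single library, scaling and probe, were chosen after the data were seen. A filter on dim probes was not possible, since the table holds no intensities.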
